A study of Mus musculus with 8 samples.

Results

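Chromosome 2 is described here in 8 liver tumors through all 12727 array probes placed on it, out of 170305 probes in all. The probes were chosen by their position in the scanner files, on the mm9 mouse build, and not by their values. They ran from chr2:3010301 to chr2:181722086, a probed length of 179 Mb, at a median spacing of 10.67 kb. Cy5-labelled tumor DNA from the livers of 8 male FAH-/- mice competed on the arrays with Cy3-labelled liver DNA of 6 male FAH+/+ littermates, combined in 1 pool. The FAH-/- mice were given NTBC (nitisinone) at 7.5 mg/L in their drinking water, and the dose was then lowered to 2.5% of its normal level, for between 6 and 12 months. Strain and exact age are not given in the labels. The tumors form 1 group with 1 array each and are numbered 1 to 8 as deposited. With 1 pooled reference, no error given here covers differences among control mice. Non-tumor liver of the same mice was not analysed here, and the dyes were not swapped.

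Array comparative genomic hybridization reads relative copy number from the competition of tumor and reference DNA for the same probe. Fah encodes the last enzyme of tyrosine breakdown, and NTBC blocks that pathway at an earlier step, so a lowered dose lets toxic intermediates form in hepatocytes. Hepatocytes are often polyploid, and gains and losses of whole chromosomes are common in liver tumors. A chromosome lost as a whole gives 1 even level along its length, whereas a deletion gives a step at each of its ends. A log2 ratio of -1 would mark the loss of 1 of 2 copies in every cell and 0.58 the gain of 1 copy. In these bulk samples, fewer cells with a loss and a smaller loss in each cell cannot be told apart.

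Of 27 liver and tumor genes listed for this chromosome, all 27 were matched to chromosome 2 in the RefSeq table, which is on GRCm38 and served only for chromosome and gene order. The table places 1782 of 21900 protein-coding genes there. The 7 metabolic genes include Ass1, an enzyme of the urea cycle, Cat, the catalase that breaks down hydrogen peroxide, and Pck1, an enzyme of gluconeogenesis. The 3 liver transcription factors are Hnf4a, Foxa2 and Cebpb. The 8 genes of mitosis and the cell cycle include Aurka, a mitotic kinase, its activator Tpx2, the spindle checkpoint kinase Bub1 and the replication clamp Pcna. The 6 genes of growth and survival include the kinases Src and Abl1, the receptor Notch1, its ligand Jag1, the anti-apoptotic Bcl2l1 and Nfe2l2, a factor of the oxidative stress response. The 3 tumor suppressors are Tsc1, an inhibitor of mTOR signalling, Wt1 and Asxl1. Each of these genes has the copy number of its stretch of chromosome 2, but none was assigned to a segment, because no gene positions on mm9 were used here.

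All values are log2 ratios of tumor over reference signal, averaged over the spots of a probe. In each tumor 0 is the commonest level among autosomal windows of 1 Mb. The arrays shared a pattern of ratios from probe to probe, with correlations on chromosome 2 of 0.918 to 0.961 among tumors 1 to 6, 0.724 to 0.834 for pairs of one of these with tumor 7 or 8, and 0.808 between tumors 7 and 8. Each result is therefore also given on a second scale, on which this shared pattern was scaled to each array and subtracted. The noise between neighbouring probes was 0.63 to 0.66 in tumors 1 to 6 and 0.39 in tumors 7 and 8 with the pattern kept, and 0.12 to 0.21 in all tumors with it removed. Of the chromosome 2 spots, 97.5% to 99.95% per array were well above background, and the median tumor signal was 4.17 to 6.56 times the local background.

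Relative to the commonest autosomal level, chromosome 2 was lowest in tumor 6. Its mean log2 ratio in tumor 6 was -0.17 with the pattern kept and -0.19 with it removed. The sign and the rank rest on where 0 is set. Centred on the array median, which lay 0.23 below the commonest level in tumor 6, the mean was 0.062, above tumor 5 (0.021) and tumor 7 (0.032). On the density peak of the probes it was 0.33, above tumor 7 (0.12) and tumor 8 (0.26). The other 7 tumors had means of 0.0066, 0.043, 0.013, 0.12, -0.00016, -0.035 and 0.071 in order of deposition with the pattern kept. On this centring tumor 6 thus lay below all the others, tumor 7 came next, tumors 1, 2, 3 and 5 were close to 0, and tumors 4 and 8 lay above 0. On the second scale the other 7 had means of 0.0031, 0.017, 0.012, 0.11, -0.0049, -0.045 and 0.072, in the same order of deposition. The gap between tumor 6 and the next tumor was 0.455 of the whole range, and 0.474 on the second scale, both under Dixon's critical value for 8 samples.

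Over the 8 tumors no shift from the commonest level was detected. The mean was 0.0067 ± 0.085 (SD, n = 8), with 3 of 8 tumors below 0, and a two-sided exact sign-flip test gave p = 0.8125 (Benjamini-Hochberg adjusted over the 19 autosomes and X, 0.855). Removing the pattern gave a mean of -0.0024 ± 0.089 (SD, n = 8) and an exact p of 0.961. The call changed with the centring, to a mean of 0.14 on array medians (exact p = 0.00781, adjusted p = 0.0391) and of 0.38 on the density peak (exact p = 0.00781, adjusted p = 0.0112). The smallest p that 8 tumors can give is 0.0078. The mean log2 ratio was -0.033 for the 4 arrays of the second slide, which held tumors 5 to 8, and 0.046 for the 4 arrays of the first. That difference did not pass an exact permutation test over the 70 splits (p = 0.229), and the 8 deposited tumors are the only replicates.

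**Figure D1:**
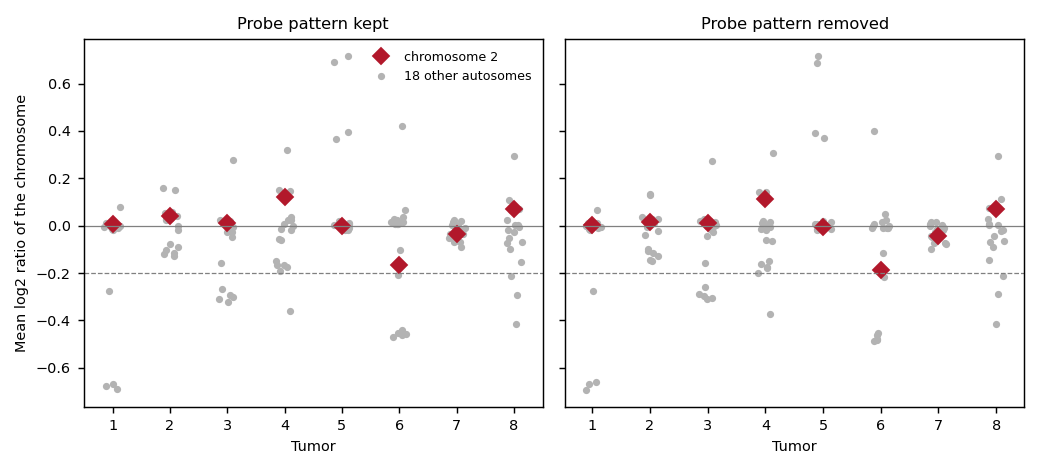
Mean log2 ratio of chromosome 2 (red diamonds) and of each of the 18 other autosomes (grey dots) in tumors 1 to 8, with the shared probe pattern kept (left) and removed (right); the dashed line is the loss threshold of -0.2. On this centring tumor 6 has the lowest chromosome 2 value, -0.17 and -0.19, close to the threshold and well above its 5 most reduced autosomes, while tumor 4 has the highest, 0.12 and 0.11.

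Relative to the commonest autosomal level, the low level of tumor 6 ran from one end of the chromosome to the other. All 37 windows of 5 Mb were below 0, with a lowest value of -0.29, a median of -0.17 and a highest value of -0.074. Segmentation, which looks for steps between neighbouring stretches, found 1 segment covering all 179 Mb, at -0.17 ± 0.0060 (SE over 12726 probes, which covers probe noise and not differences between tumors). This segment was not called, because a loss was called at -0.2 or lower. In tumor 6, 0 of the 177 bins of 1 Mb on chromosome 2 lay in called losses, against 29.3% of the 2531 bins of the genome. After removal of the pattern all 37 windows were again below 0, from -0.28 to -0.13, and 89.1% of the probes were below 0. The proximal part of the chromosome, up to the middle of the probed length, differed from the distal part by -0.018 in tumor 6, and by -0.029 with the pattern removed. Both differences lay within the range of the other 7 tumors, which ran from -0.029 in tumor 1 to 0.12 in tumor 4 with the pattern kept, and from -0.039 in tumor 1 to 0.11 in tumor 4 with it removed. Over all 8 tumors this difference averaged 0.013 ± 0.051 (SD, n = 8), and the exact sign-flip test gave p = 0.5625 (adjusted 0.703).

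Within tumor 6 the mean of chromosome 2, -0.17, lay between those of 2 sets of chromosomes. Chromosomes 8, 9, 12, 13 and 14 had means of -0.47 to -0.44 in this tumor, and 10 other autosomes had means within 0.1 of 0. On the second scale the 37 windows of chromosome 2 ran from -0.283 to -0.128624. The 127 windows of the 5 lowest autosomes ran from -0.58 to -0.40 and the 267 windows of the 10 autosomes near 0 from -0.128439 to 0.11. The chromosome 2 windows thus overlapped with neither set, although they only just cleared the lowest window of the chromosomes near 0. On the first scale they overlapped with both. Chromosome 4 was at a similar level, -0.21 with the pattern kept and -0.22 with it removed, and chromosome 18 was at -0.10 and -0.12. The X chromosome, which is in neither set, was at -0.49 on both scales.

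**Figure D2:**
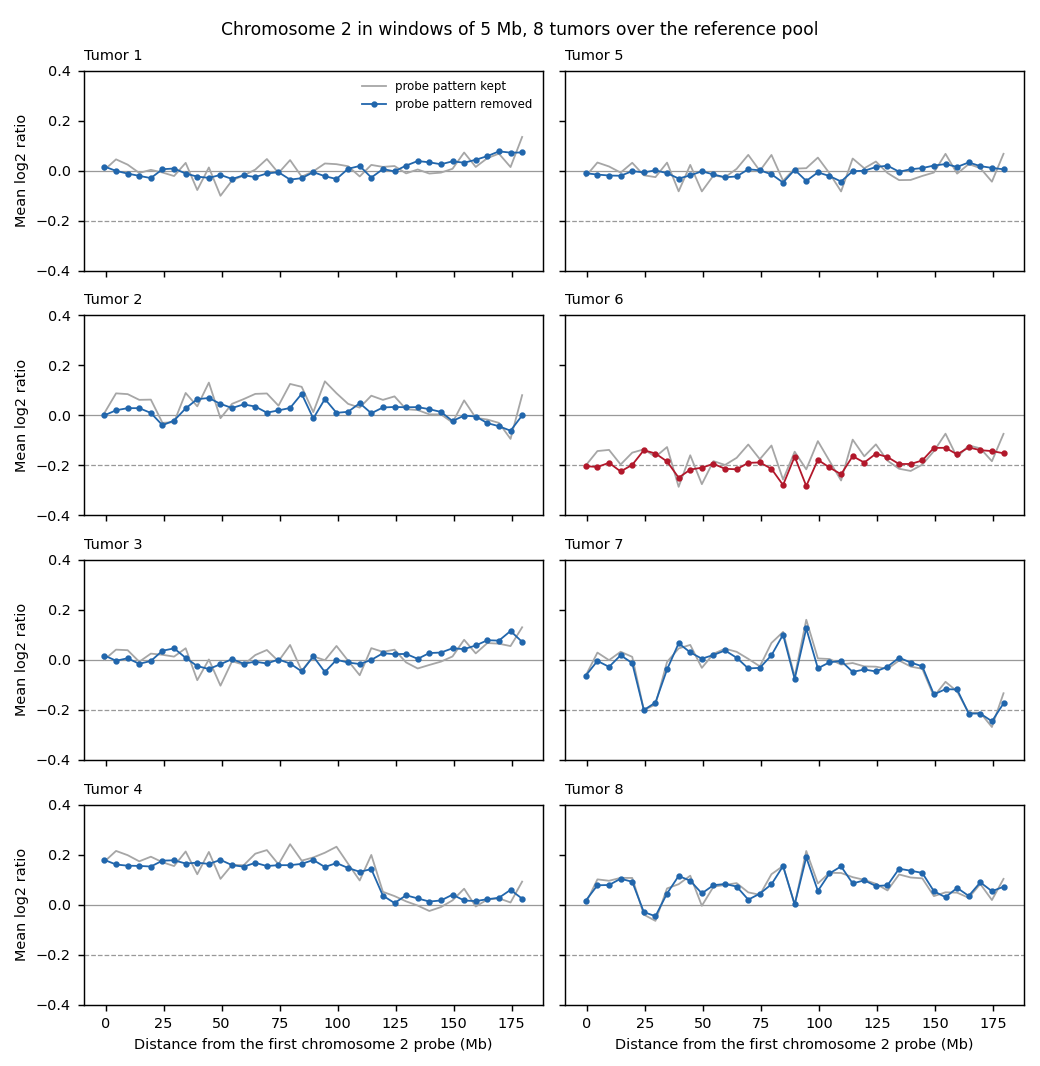
Mean log2 ratio of chromosome 2 in 37 windows of 5 Mb against distance from the first probe in Mb, 1 panel for each of the 8 tumors, with the shared probe pattern kept (grey) and removed (coloured, points); the dashed line is the loss threshold of -0.2. Tumor 6 (red) lies below 0 in all 37 windows, tumor 4 steps down at 117 Mb, and tumor 7 dips in separate places.

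Separate stretches of loss appeared in tumor 6 in some settings and not in others. With the pattern kept, segmentation gave 1 uncalled segment, but 8 of the 37 windows of 5 Mb (21.6%), scattered along the chromosome, were at or below -0.2. With it removed 13 of the 37 were. The windows of tumor 6 with the pattern kept had a correlation of 0.68 with the shared probe pattern. The lowest of them, chr2:40000001-45000000, was at -0.29. Tumors 1, 3 and 5 were at -0.078, -0.081 and -0.083 there, and tumors 2, 4, 7 and 8 at 0.036 to 0.12. With the pattern removed 19 segments were found, of which 8 were called losses and together held 33.4% of the length, and 59 of 177 bins lay in called losses (33.3%), against 34.6% of the genome bins. The 11 uncalled segments between and beyond them were also below 0. All 19 segment means lay between -0.29 and -0.14, and the median step from one segment to the next was 0.079. On that scale tumors 1, 2, 3, 5 and 8 also had more segments on chromosome 2, 5 to 24, and tumor 7 had 43. Tumor 4 had 2 on both scales. The whole genome of tumor 6 had 287 segments with the pattern removed, against 41 with it kept.

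The called stretches of tumor 6 all lay proximal to chr2:115727509. The first and the last of them were long. The stretch chr2:3010301-24235353 with 1475 probes had a mean of -0.21, and chr2:105561527-115727509 with 656 probes had a mean of -0.23. Between them, chr2:39130561-49327346 with 609 probes was at -0.24, chr2:61568364-67115728 with 400 probes at -0.24, and the shorter chr2:35962043-37537452 with 127 probes at -0.24. The lowest means were -0.29 at chr2:95920274-100840468 with 195 probes, -0.29 at chr2:85204448-89635347 with 399 probes and -0.28 at chr2:53881659-55399072 with 108 probes. Values just outside the threshold were close to those just inside it. The uncalled chr2:67136000-85192118 with 1309 probes had a mean of -0.196, and chr2:132760465-150165952 with 1184 probes had -0.19. The whole distal end, chr2:150188388-181722086 with 2213 probes, was at -0.14 and uncalled.

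The number of stretches in tumor 6 depended on where the threshold was set. With the pattern removed, 0% of chromosome 2 was called at a threshold of -0.30, 6.09% in 3 stretches at -0.26, 21.5% in 7 stretches at -0.22 and 33.4% in 8 stretches at -0.20. The called share was 56.7% in 7 stretches at -0.18, 71.5% in 4 stretches at -0.16, 79.0% in 2 stretches at -0.14 and 100% in 1 stretch at -0.12 and at -0.10. With the pattern kept the called share was 0% at -0.18 and lower thresholds and 100% in 1 stretch at -0.16 and above. The count of stretches was thus highest at the threshold used here and fell to 1 as the threshold came nearer to 0. In tumor 7 with the pattern kept, 0.0546% in 1 stretch was called at -0.30, 0.958% in 2 stretches at -0.24, 10.2% in 3 stretches at -0.22, 15.4% in 4 stretches from -0.20 to -0.12 and 25.5% in 5 stretches at -0.10. With the pattern removed the stretches of tumor 7 numbered 2 at -0.30, 10 at -0.20 and 13 at -0.10.

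**Figure D3:**
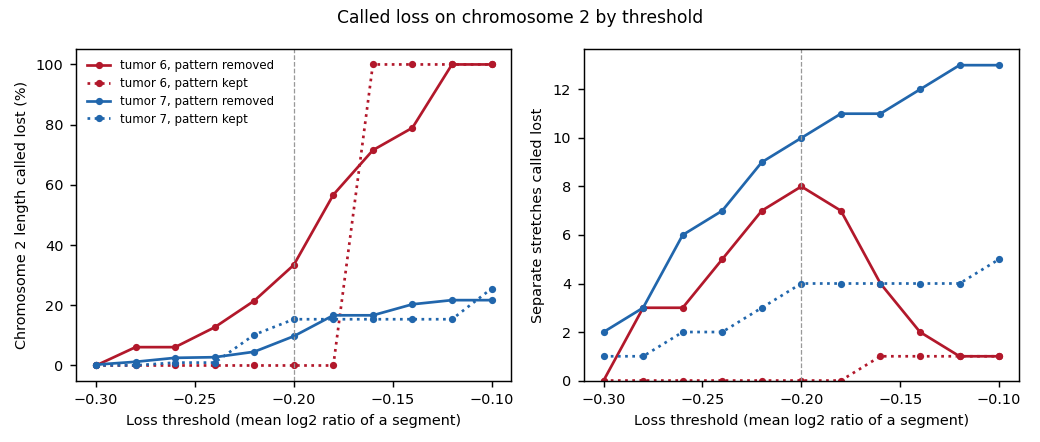
Percent of the probed length of chromosome 2 called lost (left) and number of separate called stretches (right) against the loss threshold, a mean log2 ratio from -0.30 to -0.10, in tumor 6 (red) and tumor 7 (blue), with the shared probe pattern removed (solid) and kept (dotted); the dashed line is the threshold of -0.2 used in the text. Tumor 6 goes to 100% in 1 stretch at -0.12, whereas tumor 7 does not exceed 25.5%.

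The unevenness of tumor 6 along chromosome 2 ran parallel to that of tumors with no called loss there. Its 37 window values, pattern removed, had a correlation of 0.89 with those of tumor 5, 0.85 with tumor 3 and 0.62 with tumor 1. On that scale they ran opposite to those of tumor 7 (-0.89), tumor 2 (-0.84), tumor 8 (-0.65) and tumor 4 (-0.53). With the pattern kept the correlations were 0.91 with tumor 5, 0.92 with tumor 3 and 0.80 with tumor 1. They were then -0.33 with tumor 7, 0.17 with tumor 2, -0.16 with tumor 8 and 0.15 with tumor 4. These are descriptions over neighbouring windows, which are not independent and share the probes, the reference pool and, on the second scale, the subtracted pattern. Pattern removed, the probes inside the 8 called stretches (3970) lay lower than the other 8757 by 0.070 in tumor 6, which chose them. The same inside minus outside difference in the others was -0.028 in tumor 1, -0.045 in tumor 3 and -0.034 in tumor 5, and it was 0.046 in tumor 2, 0.064 in tumor 4, 0.11 in tumor 7 and 0.063 in tumor 8. Inside minus outside was thus below 0 in 4 tumors, tumor 6 among them, and above 0 in 4. All 8 stretches lay proximal to chr2:115727509, so the outside probes held the whole distal end. Tumor 4 had a mean of 0.16 inside the stretches and 0.16 over the whole 117 Mb proximal to its own step. The part of this step in the difference of tumor 4 was not tested. Tumor 7 was at -0.16 over chr2:150188388-181722086, and the part of this in its difference was not tested. The SD of the chromosome 2 windows in tumor 6 was 0.052, equal to the median over its 19 autosomes, and 0.038 against a median of 0.035 with the pattern removed.

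Another tumor was also subtracted from tumor 6 in place of the shared pattern, and the result depended on which. The log2 ratio of tumor 6 minus that of tumor 3 formed 1 segment over chromosome 2, at -0.18, with a window SD of 0.020. Tumor 6 minus tumor 5 formed 6 segments with a mean of -0.17 and a window SD of 0.023, and 0.966% of the length was at or below -0.2. Minus tumor 1 there were 7 segments and a mean of -0.17. Minus tumor 4, which has a step of its own, there were 9 segments, and minus tumors 2, 7 and 8 there were 25, 24 and 20. The share at or below -0.2 was 0% minus tumor 3, 11.2% minus tumor 1 and 26.4% minus tumor 7. It was 62.8% minus tumor 8, 69.0% minus tumor 2 and 79.9% minus tumor 4. The probe pattern was kept in these subtractions. Its slope on the shared pattern was 1.07 in tumor 6, 0.574 in tumor 7 and 0.603 in tumor 8. The noise left was 0.37 minus tumor 7 and 0.35 minus tumor 8, against 0.17 to 0.25 minus tumors 1 to 5. Its part in the segment counts was not tested. All 37 windows were below 0 in each of these differences except that with tumor 7, where 29 of 37 were. These subtractions were chosen after the values had been seen, and their pairing has no label behind it.

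**Figure D4:**
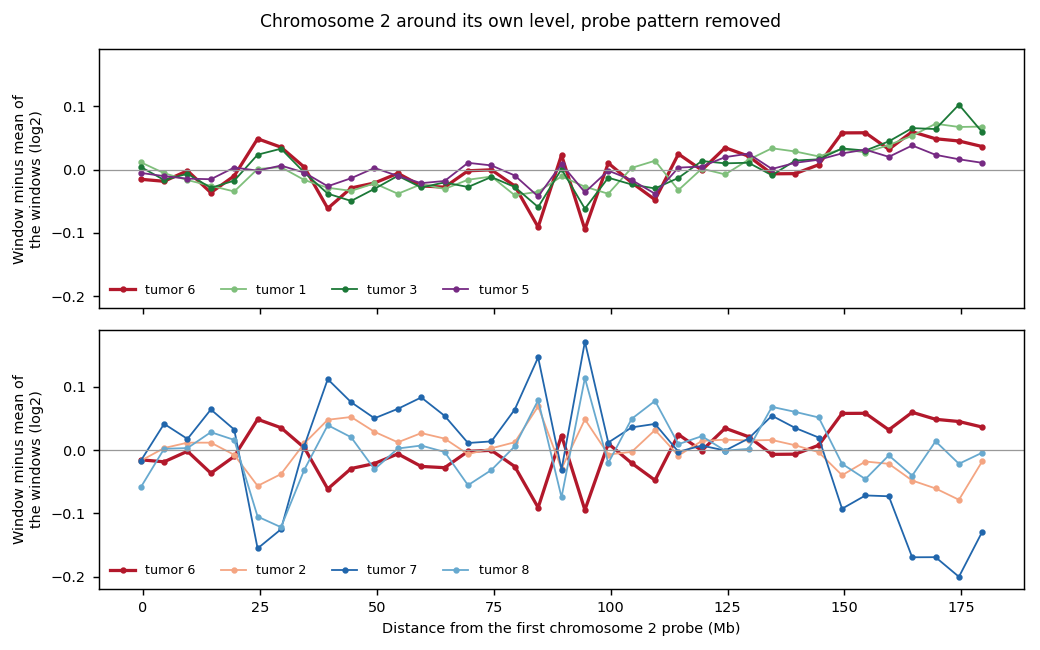
Log2 ratio of each 5 Mb window of chromosome 2 minus the mean of the windows, with the shared probe pattern removed, against distance from the first probe in Mb; tumor 6 (thick red) is drawn with tumors 1, 3 and 5 in the upper panel and with tumors 2, 7 and 8 in the lower. On this scale the windows of tumor 6 move with those of tumors 3 and 5 (r = 0.85 and 0.89) and opposite to those of tumor 7 (r = -0.89). With the pattern kept these correlations were 0.92, 0.91 and -0.33. The profiles drawn share the subtracted median of the 8 arrays, so they are not independent.

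Tumor 7 was the only tumor with called losses on chromosome 2 when the pattern was kept, and there they were separate. Of its 15 segments, 4 were losses, with 15.4% of the length, and 26 of 177 bins (14.7%) lay in called losses, against 7.59% of its genome bins. The longest was chr2:164333942-180841121, with 952 probes over 16.5 Mb at -0.23. The same stretch was at -0.15 in tumor 6 and between -0.040 and 0.058 in the other 6 tumors. The next was chr2:24786220-33985502, with 833 probes over 9.20 Mb at -0.22, where tumor 6 had -0.16 and the others -0.066 to 0.15. The stretch chr2:92203332-93815115 had 111 probes over 1.61 Mb at -0.28, where tumor 6 had -0.22, tumor 2 had -0.14 and the other 5 tumors had -0.085 to 0.11. The short stretch chr2:59533713-59631091, with 9 probes over 97.4 kb, was at -0.83 in tumor 7 and between -0.85 and -0.50 in all 8 tumors, so it did not set tumor 7 apart. The mean of chromosome 2 in tumor 7 was -0.035, and 23 of its 37 windows were below 0, from -0.27 to 0.16. The called share in tumor 7 was 0.958% with array medians set to 0 and 0.953% with normexp background correction.

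Tumor 7 was nearly as uneven on its other chromosomes. Its window SD on chromosome 2 was 0.094, against a median of 0.085 over its 19 autosomes. With the pattern kept its genome held 270 segments, against 37 to 52 in tumors 1 to 6 and 182 in tumor 8. On that scale probe noise on chromosome 2 was 0.39 in tumors 7 and 8, but 0.63 to 0.66 in tumors 1 to 6. With the pattern removed the genome counts were 569 in tumor 7, 86 to 287 in tumors 1 to 6 and 336 in tumor 8. Its windows, pattern removed, had a correlation of 0.93 with those of tumor 2 and 0.63 with those of tumor 8. On that scale they ran opposite to those of tumor 3 (-0.92), tumor 1 (-0.75) and tumor 5 (-0.73). With the pattern kept the correlations were 0.83 with tumor 2 and 0.70 with tumor 8. They were then -0.40 with tumor 3, -0.24 with tumor 1 and 0.036 with tumor 5. Tumor 7 minus tumor 2 left 4 segments between -0.18 and -0.051, with 0% of the length at or below -0.2. The other subtractions left 16 to 24 segments. The share at or below -0.2 was 10.9% minus tumor 1, 18.1% minus tumor 3, 22.9% minus tumor 4, 8.86% minus tumor 5, 0.483% minus tumor 6 and 12.2% minus tumor 8. The second scale gave tumor 7 itself 43 segments and 10 losses with 9.73% of the length, and 16 of 177 bins (9.04%), against 6.4% of its genome bins. The longer proximal stretch was called there too (chr2:24852982-34060648, 831 probes, -0.21), and the distal one was broken up. Its called parts there were chr2:164650026-166460761 at -0.27 with 156 probes, chr2:168058151-168478728 at -0.47 with 32 probes and chr2:179151607-180841121 at -0.30 with 171 probes. The uncalled pieces between these parts were also below 0, chr2:166467074-168047205 at -0.145 with 132 probes and chr2:168489649-179095100 at -0.193 with 429 probes. The other called losses were chr2:92196769-93834446 (114 probes, -0.24) and chr2:156225438-157805384 (146 probes, -0.23), and 4 further stretches had 8 to 37 probes. They were chr2:59533713-59737084 at -0.27, chr2:84612331-84940027 at -0.27, chr2:91760071-91834110 at -0.46 and chr2:119797289-120175439 at -0.24. The single gain called on that scale, chr2:105612522-105798931 with 18 probes, was at 0.25 in tumor 7, with 0.26 in tumor 8 and -0.26 in tumor 6. Tumor 7 also had the lowest tumor signal over background of the 8 arrays, 4.17. Its probe pattern was weaker than in tumors 1 to 6, with a slope of 0.574 on the shared pattern. Tumor 8, with no called loss when the pattern was kept, had a similar slope of 0.603. The part of signal and slope in the called losses was not tested.

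Tumor 4 had 1 step on chromosome 2, and its higher side was proximal. The proximal 117 Mb had a mean log2 ratio of 0.18 over 8337 probes and the distal 61.3 Mb a mean of 0.016 over 4390 probes. The step lay between the probes ending at chr2:120426422 and starting at chr2:120432543, a gap of 6.12 kb. On the second scale it lay between chr2:120457236 and chr2:120468847, with means of 0.16 and 0.022, and the proximal windows (0.13 to 0.18) did not overlap with the distal ones (0.0060 to 0.059). The same split gave a proximal minus distal difference of 0.16 in tumor 4, which chose it, and of -0.024 to 0.088 in the other 7 tumors with the pattern kept. Neither side reached the gain threshold of 0.2. No chromosome 2 bin lay in a called loss in tumor 4, against 6.48% of its genome bins with the pattern kept and 8.1% with it removed. Chromosome 1 was at a level close to that of the proximal part in the same tumor, with a mean of 0.15.

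Tumor 8 lay slightly above 0 along most of chromosome 2, with a mean of 0.071 and 4 of its 37 windows below 0, and it had no called loss with the pattern kept. A loss of 7 probes was called with the pattern removed, chr2:101864933-101908501 over 43.6 kb at -0.37, and tumor 7 was at -0.40 there. On that scale 0 of the 177 bins on chromosome 2 lay in called losses in tumor 8, against 16.4% of its genome bins, and with the pattern kept 0 of 177, against 19.4%. Its 2 called gains with the pattern kept were short. At chr2:26523107-26714344, with 9 probes, tumor 8 was at 0.68 and all 8 tumors lay between 0.40 and 1.09. At chr2:55313271-56654037, with 50 probes, it was at 0.43, and tumor 7 had a called gain over nearly the same place (chr2:55338500-56654037, 47 probes, 0.35), where all 8 tumors were between 0.16 and 0.45. Neither gain was called with the pattern removed.

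Tumors 1, 2, 3 and 5 each held chromosome 2 as 1 uncalled segment with the pattern kept. With the pattern removed they held it as 5, 15, 13 and 6 segments, none of them called. Tumor 5 was the flattest with the pattern removed, with a window SD of 0.019 and windows from -0.048 to 0.033. Tumors 1, 2 and 3 then had window SDs of 0.032, 0.032 and 0.036. On both scales 0% of chromosome 2 was called lost in these 4 tumors. Among their genome bins 17.6% of tumor 1, 0.474% of tumor 2, 30.4% of tumor 3 and 0.553% of tumor 5 lay in called losses, and 17.5%, 1.42%, 30.5% and 0.474% did with the pattern removed.

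No 1 Mb bin of chromosome 2 was called lost in several tumors. Of its 177 bins of 1 Mb, 26 were called lost in 1 tumor with the pattern kept and 75 with it removed, and 0 in 2 or more tumors on either scale. In the genome, 28.2% of bins were called lost in 2 or more tumors with the pattern kept and 29.7% with it removed. In limma, tested with treat against a log2 size of 0.1 over all bins, 0 chromosome 2 bins were lower over the 8 tumors (1 at an unadjusted p under 0.05) and 0 were higher (4 at an unadjusted p under 0.05). In the genome 0.0395% of bins were called in each direction. The count of higher bins on chromosome 2 depended on the centring, with 18 of 177 (249 of 2531 in the genome) on array medians and 173 of 177 (2054 of 2531 in the genome) on the density peak, and 0 lower bins in both. On the second scale limma called 0 bins on chromosome 2 and 0% of the genome, and 0 chromosome 2 bins had an unadjusted p under 0.05. That scale subtracts the median of these same 8 arrays at each probe, which takes most of a shift shared by the tumors with it. The bin means over the 8 tumors on chromosome 2 then ran only from -0.036 to 0.030, so these counts cannot show whether a shared shift exists. The lowest bin, chr2:57000001-58000000 with 49 probes, averaged -0.23 ± 0.10 (SD, n = 8) with a limma adjusted p of 0.146, and all 8 tumors were below 0 there, with tumor 6 at -0.43. The highest, chr2:45000001-46000000 with 29 probes, averaged 0.26 ± 0.10 (SD, n = 8) with a limma adjusted p of 0.113, and all 8 tumors were above 0 there. On the second scale these means were -0.0042 and 0.020. Averaged over the 8 tumors, 1.92% ± 5.43 (SD, n = 8) of chromosome 2 was called lost with the pattern kept, all of it in tumor 7, and 5.39% ± 11.8 (SD, n = 8) with it removed, in tumors 6, 7 and 8.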

How the data were processed

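The authors used Agilent Feature Extraction 10.7.3.1 on the scanned arrays, per the submitters' processing notes and the file headers. The deposited processed signals are intensity values, background-subtracted, detrended and dye-normalized within each array, per the file headers. The deposited log10 ratios of red over green, and the same ratios in the series table, served as an alternative, and the deposited quality marks (0 or 1) for filters. Spots marked as outliers (115 to 221 per array) and control spots were left out, log2 ratios were formed, spots of a probe averaged, and each array centred on the commonest autosomal level of 1 Mb bins. The second scale was made by subtracting each array's chromosome medians, taking each probe's median across the 8 arrays, and removing this pattern from every array by its own slope. A short change common to most tumors is subtracted with it. Segments came from circular binary segmentation at a false split rate of 1%. Losses and gains were called from a mean of -0.2 or 0.2 with at least 5 probes. limma 3.58.1 ran on 2531 bins of 1 Mb, in R 4.3.3. Python 3.11.15 with numpy 2.4.6, pandas 2.3.3, scipy 1.17.1, numba 0.67.0 and matplotlib 3.10.9 did the rest. Segmentation and limma were tried on simulated data with independent or shuffled noise, which lacks the unevenness along chromosomes described here. The false split rate was also set on independent noise, so it may not hold for these arrays. The text names every called loss where a tumor has 12 or fewer, gains under 3 Mb at 0.8 or more (none were called), and the lowest and highest bin, and the gains of tumors 7 and 8 and the uncalled segments were added after their values were seen. The members, lists and rules were chosen with earlier results of these data known. The slide was tested as a batch, and other centring, background, threshold, bin and pattern settings were tried. The number of arrays limits the precision.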

Additional observations from a re-analysis of the deposited data

Results flagged for a closer look

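The percent of chromosome 2 in called losses was far higher in 1 tumor than in the rest on each scale, by the gap of the highest value to the next. With the pattern kept it was 15.4% in tumor 7 and 0% in the other 7, so the gap was the whole range by construction. With the pattern removed it was 33.4% in tumor 6, and its gap to the next tumor was 0.709 of the range. Both lie past Dixon's critical value for 8 samples. Chance puts about 1 in 20 groups of ordinary measurements past this value, a rate that does not apply to shares that are mostly exactly 0. A different tumor stood apart on each scale. The mean log2 ratio of chromosome 2, which uses no threshold, put no tumor past the critical value.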

How the results depend on the processing

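The tumor 6 mean of chromosome 2 was -0.19 to -0.16 and that of tumor 4 was 0.11 to 0.12 in the settings centred on the commonest level. The mean over tumors, 0.0067, was 0.14 centred on array medians and 0.38 on the density peak of the probes, both of which passed the exact test. It was -0.0063 centred on the commonest segment level, -0.0024 with the pattern removed, -0.0017 with the pattern of the other 7 arrays removed, and -0.010 to 0.032 leaving out each tumor, below 0 without tumor 4 (-0.010) or tumor 8 (-0.0026). The proximal minus distal difference was -0.0021 to 0.019 leaving out each tumor, below 0 without tumor 4. limma against 0 without the minimum size called 5 lower and 10 higher bins of 177, against 233 lower and 139 higher of 2531 in the genome, and treat called 0 to 0 lower bins leaving out each tumor. The percent called lost, 1.92%, was 15.7% at a threshold of -0.1, 15.3% at -0.1 with the pattern removed, 7.62% with the pattern of the other 7 removed, 4.05% in 5 Mb windows, 0.12% on array medians and with normexp, 0.0068% on the density peak and at -0.3, and 0% to 2.19% leaving out each tumor. The 4 loss segments became 2 on array medians, 1 on the density peak, 19 with the pattern removed, 17 with the pattern of the other 7 removed, 2 with normexp, 7 at a threshold of -0.1, 1 at -0.3, 39 at -0.1 with the pattern removed, 9 in 5 Mb windows, 0 without tumors 7 and 8, and 0 to 4 leaving out each tumor, 0 without tumor 7. The thresholds on the second scale and the subtractions between tumors were added after seeing the data. No paired analysis was possible because the labels give 1 group. The cause of these changes was not tested.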
